A study of Mus musculus with 24 samples.

Results

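The m6A peaks assigned to 5′ UTRs were examined in mouse spinal cord after spared nerve injury (SNI) and after sham surgery. They are the rows of the 4 deposited peak lists annotated as 5′ UTR whose enrichment over input was 2-fold or more and whose log10 p score (lg.p) was -5 or less. This rule kept 12748 peaks of 145655 rows in all, of which 3394 came from day 3, 2820 from day 7, 3399 from day 14 and 3135 from sham. In total 4482 genes held at least 1 of them.

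In the injured mice the common peroneal and tibial nerves were ligated with silk and cut beyond the knot, and cord was taken on day 3, 7 or 14. In the sham mice the sciatic nerve and its branches were exposed and the wound was closed. Sham is labelled day 3, so the day 7 and day 14 groups had no sham of their own time. All groups were operated under sevoflurane. Strain, genotype, age and sex are not given in the labels, which describe whole spinal cord with no segment or side. Each of the 4 groups had 3 input libraries and 3 libraries enriched with an m6A antibody from fragmented poly(A) RNA, 24 in all, and the labels do not say whether the 3 came from different mice. There is 1 peak list per group, so differences between peak lists have no replicate check and were not tested.

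N6-methyladenosine is placed on mRNA by the METTL3-METTL14 complex within short sequences with a GGAC core, and most of it lies in long internal exons and near stop codons. FTO and ALKBH5 remove it, and proteins with a YTH domain bind it. In 5′ UTRs it has been linked to ribosome recruitment that does not need the cap-binding protein, above all under stress. A second mark, m6Am, is made by PCIF1 on an adenosine next to the cap, and antibodies raised against m6A bind it too. A peak that reaches the transcription start therefore cannot be assigned to either mark from enrichment alone.

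Where the blocks of a peak covered a RefSeq start of its gene (GRCm38.p6), the first transcribed bases could be read. A gene can have several RefSeq starts, and the one covered need not be its outermost start. Those of Phf23, Capns1, Fads2 and Brsk1 shown here lie inside the gene as the FPKM table bounds it. The following stretches come from sites found in all 4 lists at high fold enrichment. Each runs 5′ to 3′ on the gene's own strand, with the GGAC core in capitals.
Phf23, chr11:69996941-69996963, plus strand: ggggcggagGGACagcgaaattg
Capns1, chr7:30195127-30195150, minus strand: ggaggctctaGGACcgcgcagacg
Senp3, chr11:69682070-69682084, minus strand: gGGACtgccacacgc
Fads2, chr19:10101487-10101503, minus strand: gagGGACcgtcggtgtt
Brsk1, chr7:4690939-4690962, plus strand: agccccctggGGACccccggagaa
By comparison, 3 genes of the translation machinery without a 5′ UTR peak in any list start with the run of pyrimidines that marks TOP mRNAs, shown in capitals. The stretch of Rplp2 also holds GGAC, left in small letters, so that core does not set it apart from the sites above.
Rplp2, chr7:141447651-141447670, plus strand: CTTTCgccgccggacgccgc
Rpl14, chr9:120571517-120571536, plus strand: CTTCTCgctgagcgccgcca
Rps6, chr4:86857348-86857367, minus strand: CTCTTTTTCgtgacgcctcc
These stretches show single sites, and over all starts the GGAC core had like shares with and without a peak. It occurred in the first 50 transcribed bases of 21.1% of 1610 starts covered by a day 3 peak, 20.8% of 1001 on day 7, 20.7% of 1514 on day 14 and 20.1% of 1068 in sham. In 8417 starts of expressed genes with no 5′ UTR peak the share was 20.3%, with an exact binomial 95% interval of 19.4% to 21.2%. The intervals of the 4 lists ran from 17.8% to 23.4% and all held that value. Of all 32851 RefSeq starts listed, 18.9% held GGAC. The reversed word CAGG occurred in 29.4%, 27.3% and 28.9% of covered starts on days 3, 7 and 14 and 27.0% in sham, against 27.2% without a peak. GTCC, which is GGAC on the other strand, occurred in 18.6%, 18.5%, 17.9% and 18.5%, against 21.1%. An adenosine, the base that can carry m6Am, was first at 30.1% of covered starts on day 3, 30% on day 7, 31.2% on day 14 and 31.1% in sham, against 28.3% of the starts without a peak. Only 77.2% of the peaks belong to a gene with an entry in the table, and annotated starts can differ from the start in use. The covered starts came from 1442 of 3394 peaks on day 3, 910 of 2820 on day 7, 1384 of 3399 on day 14 and 991 of 3135 in sham. Most 5′ UTR peaks were thus not searched.

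The 5′ UTR peaks made up a similar share of the strong peaks in each list, 15.4% on day 3, 13.5% on day 7, 15.5% on day 14 and 14.4% in sham. Most lay over the transcription start. Peak blocks covered the annotated start in 82.1% on day 3, 70.6% on day 7, 81.2% on day 14 and 69.8% in sham. Of the 3′ UTR peaks of the same lists 8.88%, 6.64%, 8.90% and 5.59% covered the start of the gene they were assigned to. Of the other exon peaks 25.9%, 19.4%, 25.3% and 17.7% did. The classes are set by position in the gene, so these shares describe them and are no test. The 5′ UTR peaks on day 3 and day 14 were longer, with a median exonic length of 420 and 391 bases, against 331 on day 7 and 300 in sham. Among peaks of 200 to 400 exonic bases the start was covered in 87.2% on day 3, 76.4% on day 7, 86.9% on day 14 and 75.1% in sham, so day 3 and day 14 stayed above day 7 and sham at like length.

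**Figure D1:**
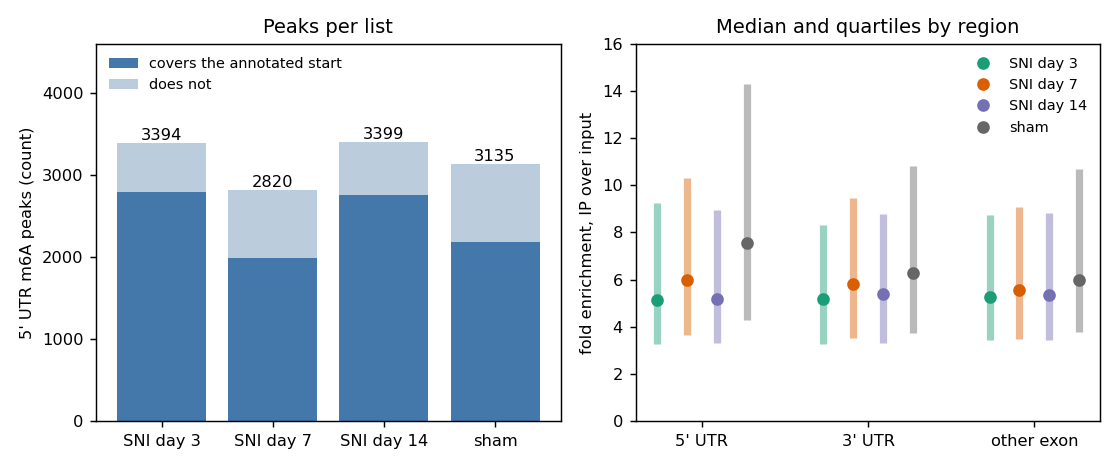
Left, number of 5′ UTR m6A peaks in each list, split by whether the peak blocks cover the annotated transcription start. Right, median (point) and quartiles (bar) of fold enrichment by region and list: at 5′ UTRs the 3 injured medians of 5.12, 5.97 and 5.16 lie below the sham median of 7.55.

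The median fold enrichment at 5′ UTRs was 5.12 on day 3, 5.97 on day 7 and 5.16 on day 14, against 7.55 in sham. The peaks were chosen on fold, so this is a description. The 3′ UTR peaks had medians of 5.19, 5.80 and 5.37 on the 3 days and 6.29 in sham. At the threshold, the member nearest to it had a fold of 2 in each list and the nearest row outside 1.99, and the lg.p values nearest to it were -5 and -4.98 on day 3 and -5.01 and -4.99 in sham. Of 7018 rows annotated 5′ UTR on day 3, 2783 failed on lg.p alone, and so did 1610 of 4988 in sham. The depth behind each list is unknown.

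The input libraries carried markers of spinal cord. All 4 neuronal markers and the 4 Hox markers of cord segments had a mean of at least 1 FPKM (fragments per kilobase of transcript, scaled to library size), and none of the dorsal root ganglion markers found in the table reached it. Of the 12 input libraries, day 7 replicate 3 and sham replicate 3 stood apart: their Pearson r across genes with the other 10 was 0.925 to 0.942, while those 10 correlated at 0.979 to 0.988 with each other. Day 7 and sham are also the lists with shorter peaks with lower shares over the start. Whether these libraries bear on the lists was not tested, since no enriched library has values of its own.

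A core of sites met the thresholds in every list. With peaks matched when each covered at least 50% of the other on the same strand, 979 sham sites in 944 genes had a 5′ UTR partner in all 3 injured lists. Their median fold was 6.37 on day 3, 6.58 on day 7 and 6.21 on day 14, against 8.12 in sham. The median log2 ratio to sham was -0.33, -0.28 and -0.30 on days 3, 7 and 14. At 6098 3′ UTR sites in all 4 lists it was -0.29, -0.21 and -0.22, and at 1647 other exon sites -0.35, -0.19 and -0.26, so the same sign was found in each region. The 3 ratios share the sham list.

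The sites with the highest fold in their weakest list were in genes of varied function, and all 12 covered the start. Phf23, which encodes a PHD finger protein, had a fold of 163 on day 3, 135 on day 7 and 147 on day 14, against 131 in sham, in a sham peak of 5 blocks at chr11:69995777-69997556. Pde1b, a calmodulin-activated phosphodiesterase of cyclic nucleotides, had 374, 101 and 103 on days 3, 7 and 14, against 324 in sham. Trim41, a ubiquitin ligase, had 100, 103 and 174, against 119. Day 3 was the highest list for Phf23 and Pde1b, and day 14 for Trim41.

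Capns1, the small regulatory subunit of calpains, reached 406 on day 3, 153 on day 7 and 99.5 on day 14, against 709 in sham. Counting either strand, overlapping rows outside the 5′ UTR peaks of Capns1 reached 296 on day 7 and 160 on day 14. Senp3, a SUMO protease of the nucleolus, had 103, 241 and 106 on the injured days, against 99.4 in sham. Fads2, a desaturase of polyunsaturated fatty acid synthesis, had 161, 187 and 188, against 81.1, and was higher in every injured list. Brsk1, a kinase of neuronal polarity, had 163, 257 and 65.5, against 304 in sham. Map7d2, a microtubule-associated protein, had 151, 58.3 and 131, against 377 in sham. Brsk1 and Map7d2 were lower in every injured list, the opposite of Fads2. Chd3, a chromatin remodeller of the NuRD complex, had 147, 87.3 and 103, against 80.5 in sham. Tmem114 (140, 226 and 85.3, against 307), Gtpbp2 (150, 82.7 and 149, against 155) and Ube2k (52.9, 61.1 and 73.2, against 79) completed the 12.

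**Figure D2:**
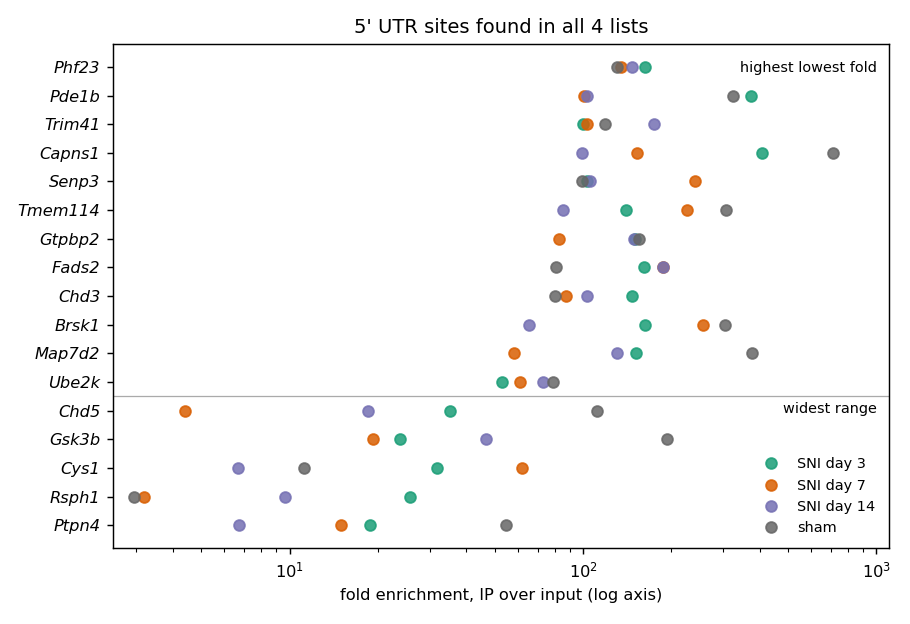
Fold enrichment (log axis) at 5′ UTR sites found in all 4 lists, 1 point per list. The upper 12 genes have the highest fold in their weakest list, from Phf23 with a lowest value of 131 to Ube2k with 52.9; the lower 5 have the widest range between lists, from Chd5 with 4.39 on day 7 and 112 in sham.

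Other sites in all 4 lists varied widely. Chd5, a chromatin remodeller of neurons, had a fold of 35.2 on day 3, 4.39 on day 7 and 18.5 on day 14, against 112 in sham, and another overlapping row on day 7 reached 41.3. Gsk3b, the glycogen synthase kinase, had 23.7, 19.3 and 46.6, against 193 in sham. Ptpn4, a tyrosine phosphatase, had 18.8, 15 and 6.7, against 54.6. For these 3 genes sham was the highest list. Cys1 and Rsph1, both genes of cilia, went the other way on day 3: Cys1 had 31.7, 62 and 6.69, against 11.2 in sham, and Rsph1 had 25.8, 3.2 and 9.67, against 2.96. Neither of these peaks covered the annotated start. No count per peak was available, so these folds carry no error.

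Day 3 and day 14 shared the most peaks. Of the day 3 peaks 66.9% were found in the day 14 list, and of the day 14 peaks 66.6% in the day 3 list. Of the day 7 peaks 55.2% were found on day 3, 56% on day 14 and 58.5% in sham, and the exact binomial 95% intervals for day 14 (54.1% to 57.8%) and sham (56.7% to 60.4%) overlapped. Of the sham peaks 52.8% were found on day 7. In the other lists 47.2% of the sham peaks were found on day 3 and 48.9% on day 14, with exact binomial 95% intervals of 45.4% to 49.0% and 47.1% to 50.6%, against 51.0% to 54.6% for day 7. These intervals cover counting error only. For 3′ UTR peaks the shares of sham sites found were 61.1% on day 3, 67.8% on day 7 and 61.6% on day 14. For other exon peaks they were 38.1%, 47.5% and 39.3%, below the 5′ UTR shares. Other exon peaks were not lower throughout: of those on day 3, 57.4% were found on day 7, against 45.8% of the 5′ UTR peaks. With any overlap of 1 base the shares of sham 5′ UTR sites became 70.5%, 68.4% and 71.8%, and day 7 was then the lowest.

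**Figure D3:**
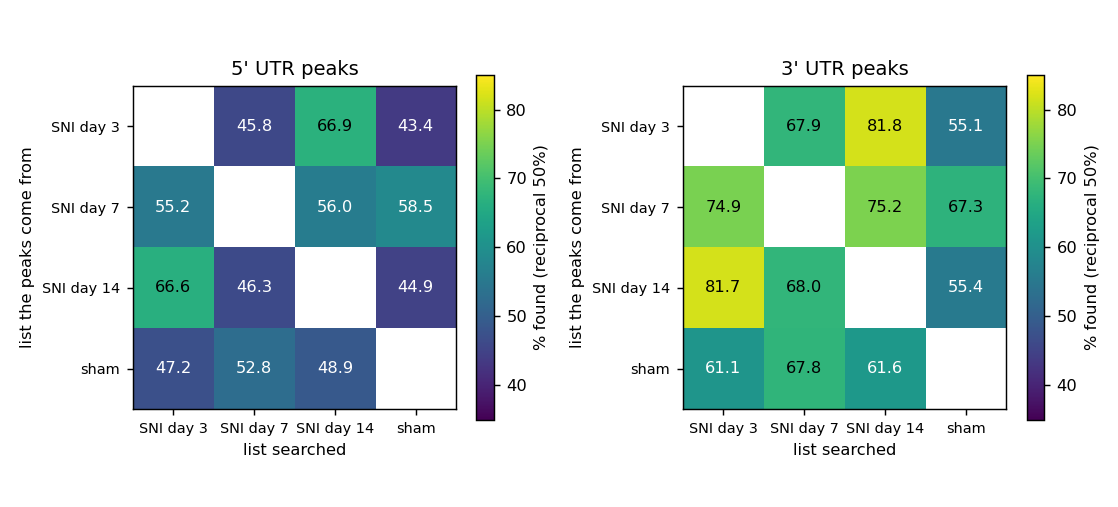
Percentage of the peaks of 1 list (rows) that have a partner of the same region class in another list (columns), at a reciprocal overlap of 50%. Day 3 and day 14 share the most 5′ UTR peaks (66.9% and 66.6%), and each value lies below the 3′ UTR value of the same cell. Other exon peaks, not drawn, lie on both sides of the 5′ UTR values.

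Counted by gene, 1568 of the 4482 genes had a 5′ UTR peak in all 4 lists (35%), 681 in 3, 1000 in 2 and 1233 in only 1. A further group of 467 genes had one on day 3 and day 14 only, and 155 on day 7 and in sham only. The 3 injured lists without sham held 237 genes, and sham alone held 385.

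Some peaks had no counterpart of any strength on the same strand. On day 3 these were 763 peaks with no overlapping sham row (22.5%), on day 7 323 (11.5%) and on day 14 740 (21.8%). Their median fold was 3.25, 4.02 and 3.31, below the 5.91, 6.27 and 5.83 of the other peaks of the same lists. Among 3′ UTR peaks the shares without a sham row were 15.1%, 8.42% and 15.5% on days 3, 7 and 14. Among other exon peaks they were 16.3%, 13.4% and 14.5%. Conversely 216 sham 5′ UTR peaks (6.89%) had no row on day 3, 456 (14.5%) none on day 7 and 210 (6.70%) none on day 14. Of the sham 3′ UTR peaks 2.88%, 4.84% and 2.83% had none, and of the sham other exon peaks 6.86%, 8.9% and 6.29%. Present on all 3 injured days and absent from sham were 67 of the 5′ UTR peaks, in 65 genes. A set of 81 sham 5′ UTR peaks in 79 genes was absent from all 3 injured lists.

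Among the peaks of all 3 injured lists, Hira, which encodes a histone chaperone, had a fold of 48.7 on day 3 (chr16:18877186-18877485), 35.2 on day 7 and 66.8 on day 14, with no overlapping sham row. Fam193b had 34, 22.5 and 10.3 on the same days. Cbfb, the partner subunit of Runx transcription factors, had 14.7, 20.7 and 25.5. Purb, a single-stranded nucleic acid binding protein, had 7.33, 39.5 and 10.5, and Scaf8, which binds the tail of RNA polymerase II, had 4.33, 39.5 and 4.33. The day 3 lg.p of Purb was close to the threshold, at -5.06. Input RNA of Purb was 73.4 FPKM in day 7 replicate 3 and 77.5 in sham replicate 3, against 24.2 to 26.1 in the other libraries. The part of this in its peaks was not tested. Input RNA of Hira averaged 7.33 ± 0.172 FPKM on day 3, 7.22 ± 0.858 on day 7 and 8.02 ± 0.0332 on day 14, against 7.05 ± 0.318 in sham (SD, n = 3 each). Hira RNA did not pass in limma on any day.

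Sh3glb2, an endophilin, and Cadm4, an adhesion protein of myelinated axons, had peaks on day 3 and day 14 alone. Sh3glb2 had a fold of 97.3 on day 3 and 47.2 on day 14, and Cadm4 had 36.7 and 56.4, with no row on day 7 or in sham. Input RNA of both genes was lower in the libraries that stood apart, day 7 replicate 3 and sham replicate 3. Sh3glb2 had 19 and 18.4 FPKM there, against 34.4 to 37.4 in the other libraries. Cadm4 had 78 and 69.3 FPKM, against 104 to 116. The part of these libraries in the absence of the peaks was not tested. Mylip, a ubiquitin ligase of lipoprotein receptors, had 20.8, 10.8 and 37.8 on days 3, 7 and 14. Mtmr2, a phosphoinositide phosphatase, had a peak of 36.6 on day 7 alone, which did not cover the start, and Soga1 had 10.2, 37.6 and 22. Fabp1, the liver-type fatty acid binding protein, had one of 114 on day 14 alone, of 263 exonic bases beginning past the start. Fabp1 was almost absent from the day 14 input, at 0.0558 ± 0.0514 FPKM (SD, n = 3), and low on day 7, at 0.184 ± 0.176. Its mean was 9.13 ± 10.5 FPKM on day 3 and 7.08 ± 8.3 in sham, with wide spread between libraries. The fold of 114 is thus a ratio over very little input RNA, and the part of this in its height was not tested. Ahsa2, a cochaperone gene, had 53.9 on day 3 and 23.1 on day 14, and a sham row of 10.8 lay over the same place on the other strand.

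Of the sham peaks absent from all 3 injured lists, Rab22a, a GTPase of early endosomes, had the highest fold, 30.6 at chr2:173659760-173659850. Tsn, which encodes translin, followed with 25.7, Rbfox2, a neuronal splicing factor, with 20.7 and Mogs, a glucosidase of N-glycan trimming, with 19.9. Rbfox2 kept another 5′ UTR peak on day 3 and on day 14. The lg.p of these peaks was close to the threshold in part, -5.46 for Rbfox2 and -5.21 for Mogs.

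On single days, the highest named sham fold without a counterpart on day 3 was that of Trpm3, a heat-sensing cation channel. Trpm3 had no row on day 3 and 19.7 on day 7, against 39.7 in sham, and its day 14 row of 9.23 missed the lg.p threshold. On day 7 the highest after H3c14, treated below, was that of Rab35, a recycling GTPase. Rab35 had 62.7 on day 3 and 58 on day 14, against 151 in sham. Adcy5, an adenylate cyclase, had a sham peak of 35.6 with no day 3 row over it, while 2 other 5′ UTR peaks of Adcy5 were in the day 3 list. Tspan4 had no day 3 row and overlapping rows of 4.32 on day 7 and 6.15 on day 14, against 33.1 in sham. Zfpm2 likewise had none on day 3 and 23.5 on day 7, against 30.6 in sham, and its day 14 row of 11 missed the lg.p threshold. Zbtb4, a methyl-CpG binding repressor, had 24.6 on day 3 and 17.6 on day 14, against 62.9 in sham, and no row on day 7. On day 14 Riox1 (38.9 in sham) had no same-strand row and Zfp398 (28.1 in sham) had no row. The histone gene H3c14 also met the rule, with a sham fold of 207 and no row on day 7. So did the histone gene H2ac18 and the gene Fam177a2, with sham folds of 45.3 and 40.5 and no row on day 14. Reads of these genes can be shared with near-identical copies, so their presence in a list is uncertain.

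The listed genes of stress responses and translation came next. Of 23 expressed genes of the integrated stress response or with regulatory upstream reading frames, 11 had a 5′ UTR peak on day 3, 7 on day 7 and 6 on day 14, against 4 in sham. Over all 13479 genes with a mean of at least 1 FPKM the shares were 21.0%, 16.7% and 21.1%, against 18.3% in sham. These shares are the background for each gene list below. Gadd45a, a stress-induced growth arrest gene, had a fold of 13.9, 15.5 and 16.9 on days 3, 7 and 14, against 23.2 in sham. Atf5, a transcription factor translated through upstream frames, had 9.33, 13 and 8.81, against 8.07. Ppp1r15a, which directs dephosphorylation of eIF2α, had a peak of 2.81 on day 3 and 11.3 on day 7, while its day 14 row of 4.39 missed the lg.p threshold and sham had none. Eif5, an initiation factor, had a peak of 26.3 on day 7 alone, with rows of 2.05 on day 14 and 3.59 in sham that missed the lg.p threshold.

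Of 44 genes of the ribosome and other TOP mRNAs, 4, 1 and 3 had one on days 3, 7 and 14, against 5 in sham, at a median RNA level of 64.4 FPKM. Only 8 of the 44 start with such a pyrimidine run in the reference table. Tpt1, the translationally controlled tumour protein, had the highest fold, 38.7 on day 3 and 8.35 on day 14, against 29 in sham, with none on day 7. Rpl13a had 3.43 on day 3 and 3.85 on day 14, against 15.4 in sham. Of 27 initiation factor genes 5 had a peak on each injured day, against 7 in sham. Eif3g and Eif2s2 had their peaks in sham alone, with 23.2 and 19.9, and weaker rows on the injured days missed the threshold. Of 21 heat shock genes 3, 3 and 4 had a peak, against 4 in sham. Dnajb1, an Hsp40 cochaperone, was in all lists with 7.33, 6.44 and 9.32, against 7.96.

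Of 19 expressed genes of the m6A and m6Am machinery 3, 4 and 4 had a 5′ UTR peak on days 3, 7 and 14, against 7 in sham. The reader gene Ythdc2 had a fold of 16.4, 26.3 and 24.6, against 28.1 in sham, and Ythdc1, the nuclear reader, had 3.52, 5.26 and 2.83, against 7.39. Rbm15b, an adaptor of the methyltransferase complex, had a peak of 21.1 in sham alone. Alkbh5, a demethylase, also had its peak in sham alone, at 5.32, while its day 7 row of 11.3 and day 14 row of 2.01 missed the lg.p threshold.

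Genes of neuronal signalling followed. Of 28 expressed transmitter receptor genes 11, 12 and 12 had a 5′ UTR peak on days 3, 7 and 14, against 10 in sham. The GABA-A receptor subunit gene Gabra3 had a fold of 9.77, 31.5 and 9.59, against 6.11 in sham. Gabbr1, a subunit of the GABA-B receptor, had 9.87, 8.55 and 7.7, against 21.3. Of 26 ion channel genes 13, 8 and 9 had a peak, against 9 in sham. Kcnma1, a calcium-activated potassium channel, had 25.8 on day 3, against 4.61 in sham, and its rows on day 7 and day 14 missed the threshold. Kcnq3, a subunit of the M-current channel, had 16.4, 15 and 3.52, against 15.4. Kcnj3 had its peak of 12.9 in sham alone.

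Of 29 kinases linked to central sensitisation 7, 4 and 9 had a peak, against 5 in sham. Mapk3, which encodes the kinase ERK1, had the highest fold of all listed genes, 225 on day 3, 113 on day 7 and 214 on day 14, against 204 in sham. Prkce and Prkca are protein kinase C isoforms; Prkce had 11.1, 7.2 and 27.2, against 27.3, and Prkca 3.85 on day 3 and 6.54 on day 14, against 13.8. Of 16 immediate early genes 6, 6 and 5 had one, against 6 in sham. Bdnf, a neurotrophin with several alternative first exons, had 3, 3 and 2 peaks on the injured days, its strongest at 11.7, 5.87 and 7.56, against 29 in sham. Homer1 had 8.99, 6.32 and 6.74, against 27.7.

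Of 23 axon injury and regeneration genes 5, 6 and 5 had a peak, against 8 in sham. Gap43, a growth cone protein, had a fold of 21.9, 17.8 and 27.8, against 24.1. Sox11 had 6.25 on day 3 and 29 on day 14, against 10.8. Jun and Klf7 had peaks on day 7 and in sham alone, 7.42 against 16.1 for Jun and 15 against 14.9 for Klf7. Of 21 microglia and complement genes 6, 8 and 5 had one, against 6 in sham, with Cx3cr1, the fractalkine receptor, at 14.1 on day 7 alone (its rows of 7.91 on day 14 and 4.14 in sham missed the threshold) and Aif1 at 3.93, 3.57 and 3.2, against 10.8.

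Of 17 myelin genes 7, 3 and 6 had a peak on days 3, 7 and 14, against 2 in sham (41.2%, 17.6% and 35.3%, against 11.8%). Over all expressed genes the shares were 21.0%, 16.7% and 21.1%, against 18.3%. The myelin genes had a median RNA level of 80.8 FPKM. Among all genes of 30 to 100 FPKM the shares were 26.4%, 18.4% and 26.3%, against 19% in sham, and at 100 FPKM and over 28.1%, 12.6% and 27.7%, against 15.0%. The part of RNA level in the myelin counts was not tested. Ugt8a, a galactosyltransferase of myelin lipids, had a fold of 4.88 on day 3 and 7.03 on day 14, and no row on day 7 or in sham. Mobp was in all lists with 4.43, 3.33 and 4.03, against 2.48. Of 27 splicing factor genes 7, 4 and 5 had a peak, against 6 in sham, and Hnrnpd had 23.2, 25.5 and 21.6, against 36.9, Hnrnpdl 10.9, 12.2 and 10.5, against 30. Ptbp1 had 6.58 on day 7, against 29 in sham, and its rows of 3.52 on day 3 and on day 14 missed the threshold.

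The share of genes with a 5′ UTR peak was lowest at low RNA levels and peaked at 10 to 30 FPKM on day 7 and in sham, while on day 3 and day 14 it stayed near its highest value above that. From 0.5 to 1 FPKM it was 6.19% on day 3, 5.56% on day 7 and 5.85% on day 14, against 6.43% in sham. From 10 to 30 FPKM it was 27.4%, 20.3% and 27.5%, against 22.6%, and from 30 to 100 FPKM 26.4%, 18.4% and 26.3%, against 19%. At 100 FPKM and over, 28.1% and 27.7% of 253 genes had one on day 3 and day 14, against 12.6% on day 7 and 15.0% in sham. The exact binomial 95% intervals lay within 22.2% to 34.0% for day 3 and day 14 and within 8.81% to 20% for day 7 and sham. These intervals cover counting error only, and the same 253 genes were counted in each list. With 1 list per group, the difference between lists was not tested. Of the expressed genes with a 5′ UTR peak, a 3′ UTR peak was also held by 76.1%, 69.9% and 76.3% on days 3, 7 and 14 and 69.8% in sham, against 62.0%, 56.1%, 62.8% and 53.8% of the expressed genes without one. The genes with a 5′ UTR peak had a median RNA level of 7.51, 6.87, 7.57 and 6.81 FPKM in the same order, against 5.11, 5.32, 5.11 and 5.32 FPKM for those without, and the part of RNA level in this was not tested.

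**Figure D4:**
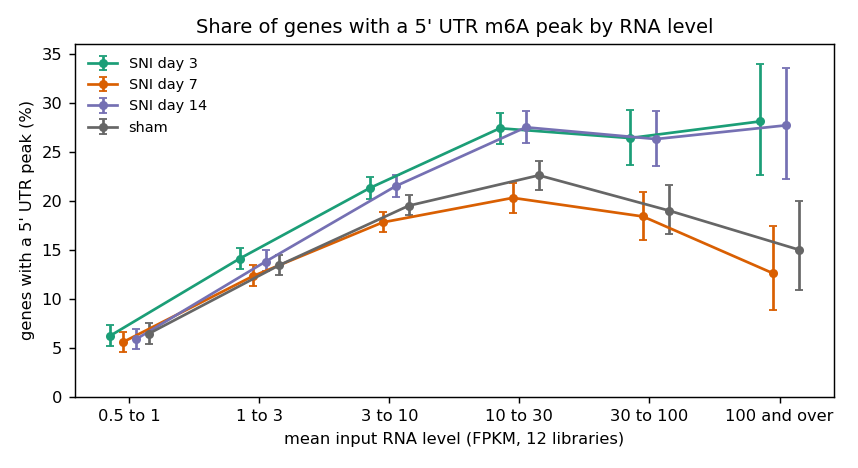
Percentage of genes with a 5′ UTR m6A peak by mean input RNA level, 1 line per list, with exact binomial 95% intervals that cover counting error only. At 100 FPKM and over, day 3 (28.1%) and day 14 (27.7%) lie above day 7 (12.6%) and sham (15.0%).

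Input RNA of genes with a 5′ UTR peak was compared with sham in limma over all 15564 genes with a mean of at least 0.5 FPKM, on log2(FPKM + 0.5), which understates changes of low genes. Of the 4482 genes 4142 were tested, and 340 were not. At a Benjamini-Hochberg adjusted p below 0.05, 3 of them passed on day 3, 2 on day 7 and 2 on day 14, all higher after injury. The background over all genes tested was 0.0578%, 0.103% and 0.0514% (9, 16 and 8 genes; higher ones made up 0.0514%, 0.103% and 0.0514%), and the peak genes' shares were 0.0724%, 0.0483% and 0.0483%, near it. At an unadjusted p below 0.05 there were 198, 64 and 168 peak genes, 4.78%, 1.55% and 4.06%, against 6.24%, 2.53% and 4.92% of all genes tested.

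S100a11, a calcium-binding protein placed among the axon injury genes, was 7.83, 8.36 and 8.43 FPKM on day 3, 13, 12.2 and 12.2 on day 7 and 11.7, 10.3 and 9.93 on day 14, against 4.40, 4.57 and 4.77 in sham. All 9 injured libraries lay above all 3 sham libraries. The log2 fold change was 0.78 ± 0.08 (SE) on day 3, 1.35 ± 0.08 on day 7 and 1.13 ± 0.08 on day 14, with limma adjusted p of 0.00586, 4.08e-05 and 0.000116. Its 5′ UTR peak was in the day 7 list alone, with a fold of 2, at the threshold.

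C1qa, a chain of complement C1q made by microglia, was 32.2, 33.8 and 31.9 FPKM on day 3, 35.7, 35.8 and 39.6 on day 7 and 28.2, 29.9 and 30.8 on day 14, against 25.0, 22.1 and 20.6 in sham. All injured libraries lay above the sham libraries, and the change passed on day 7, at 0.71 ± 0.08 (limma adjusted p = 0.0108), while day 3 gave 0.53 (0.0703) and day 14 0.39 (0.340). Its peak was in every list, with a fold of 4.4, 5.76 and 4.58, against 8 in sham.

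Dbp, a transcription factor of the circadian clock output, was 11.5, 12.7 and 12.8 FPKM on day 3, 8.25, 8.34 and 6.29 on day 7 and 11.7, 12.8 and 12.7 on day 14, against 6.45, 5.28 and 5.93 in sham. It passed on day 3 (1.01 ± 0.11, limma adjusted p = 0.012) and on day 14 (1.01 ± 0.11, adjusted p = 0.0093), and day 7 overlapped with sham. The hour of sampling is not given in the labels. Its peak lay over the start at chr7:45705088-45705597 on day 3 and had a fold of 5.05, 4.84 and 4.19, against 4.86 in sham.

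Bin2, a membrane-binding protein of microglia and other myeloid cells, was 3.07, 3.25 and 3.58 FPKM on day 3, 2.65, 3.11 and 3.05 on day 7 and 2.16, 1.92 and 2.13 on day 14, against 1.80, 1.58 and 1.13 in sham. It passed on day 3 (0.94 ± 0.13, limma adjusted p = 0.0355), and its peak had a fold of 4.35, 7.05 and 6.02, against 11.6 in sham. The 3 microglial markers Tmem119, P2ry12 and Cx3cr1 summed to 23.5 to 24.2 FPKM on day 3, 22.3 to 28.2 on day 7 and 20.2 to 21.5 on day 14, against 16.8 to 18.7 in sham; the blood markers Hbb-bs, Hba-a1 and S100a8 summed to 263 to 321 FPKM on day 3, 341 to 423 on day 7 and 218 to 226 on day 14, against 116 to 190 in sham. In both sets each injured group lay above sham. Their part in the values of C1qa, Bin2 and S100a11 was not tested. More cells of a type and more RNA per cell cannot be told apart in whole tissue.

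**Figure D5:**
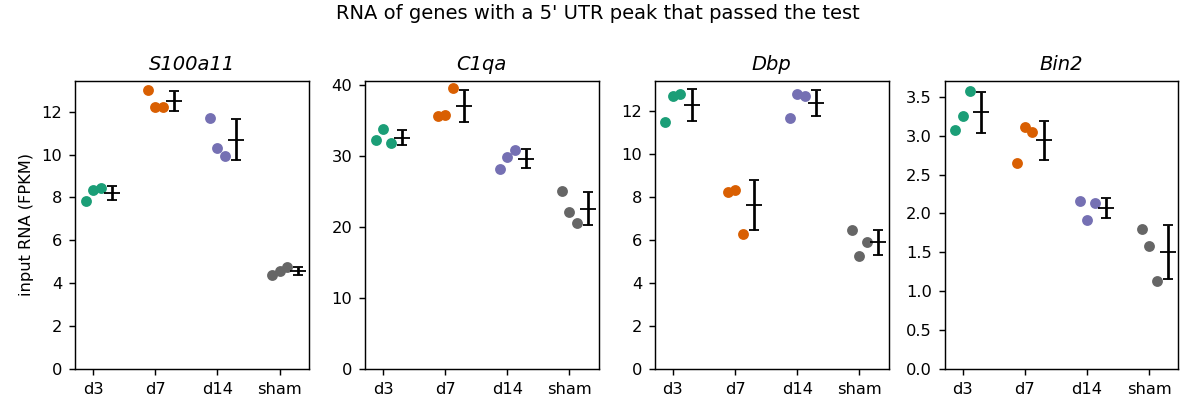
Input RNA in FPKM in each library (points) with mean and SD of 3 libraries (black) for the 4 genes with a 5′ UTR peak that passed in limma. S100a11 lies at 7.83 to 13 FPKM in injured cord and 4.40 to 4.77 in sham; Dbp is high on day 3 and day 14.

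These counts rested on single libraries. On day 3, 0 of the 3 genes passed in limma without day 3 replicate 2 or without day 3 replicate 3, 1 without day 3 replicate 1 or sham replicate 2, 12 without day 7 replicate 3 and 5 without sham replicate 3. On day 7 the count was 1 without day 7 replicate 1 or sham replicate 2 and 4 without sham replicate 3. On day 14 it was 1 without day 14 replicate 2 or 3 or sham replicate 2, 6 without day 7 replicate 3 and 5 without sham replicate 3. Without both libraries that stood apart, 345 genes with a 5′ UTR peak passed on day 3, 46 on day 7 and 244 on day 14, which were 8.33%, 1.11% and 5.89% of them, against a background of 7.07%, 1.11% and 4.71%. Of these, 183 were higher and 162 lower on day 3, against 4.01% and 3.06% of all genes tested. On day 7, 33 were higher and 13 lower, against 0.732% and 0.379%. On day 14, 129 were higher and 115 lower, against 2.42% and 2.29%. In that fit 7 of the 8 tested myelin genes with a peak were lower on day 3 and on day 14, while on day 7 0 were lower and 1 was higher. Mobp was at -0.06 on day 3, -0.02 on day 7 and -0.16 on day 14. With all libraries Mobp averaged 493 ± 3.30 FPKM on day 3, 586 ± 133 on day 7 and 461 ± 3.68 on day 14, against 577 ± 106 in sham (SD, n = 3 each), and it did not pass. Of 6 ribosomal protein and TOP genes with a peak, 6, 2 and 2 were higher on days 3, 7 and 14 in that fit, and of 10 microglia and complement genes 5, 5 and 3 were.

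RNA of genes whose 5′ UTR sites differed between lists had medians near that of all genes. Genes with a peak that had no sham partner at 50% overlap had a median log2 change of 0.01 on day 3 (1545 genes), 0 on day 7 (838) and 0.03 on day 14 (1484). Genes with a sham peak that had no partner on the day had -0.01 (1114 genes), 0 (1023) and 0 (1071). The median of all genes tested was 0.03, 0.01 and 0.03. A gene can be in both sets through different peaks, as 594 were on day 3. Of the 44 genes named above for their sites, none passed in limma on any day, and 0, 0 and 2 had an unadjusted p below 0.05 on days 3, 7 and 14.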

How the data were processed

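Per the labels, fragmented poly(A) RNA of mouse spinal cord was sequenced as input and after m6A immunoprecipitation, with strand-marked libraries. The submitters' processing notes name HISAT2, ChIPseeker, StringTie and edgeR, without versions; the peak caller, the genome build and any pooling of replicates have no entry in those notes or in the labels (not given in the sources used here). The deposited peak lists, 1 per group, give fold enrichment as a ratio of enriched over input, and lg.p is a score that by its header is a log10 p. The deposited gene table gives FPKM for 32884 genes in 12 input libraries. Depth is unknown, so precision comes from the 3 libraries of a group, whose spread may be only technical.

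Peaks were kept at a fold of at least 2 and lg.p of at most -5. Deposited starts count from 0 (in 105192 of 105192 single-block rows the block is 1 base shorter than the span) and are printed from 1. Of 26219 symbols matched to RefSeq genes of GRCm38.p6, 99.92% overlapped the gene of that name. Regions are ChIPseeker's; for 664 peaks (5.21%) the caller named another gene. RNA was fitted with limma 3.58.1 in R 4.3.3 (trend) on log2(FPKM + 0.5), genes with a mean of at least 0.5 FPKM, 4 group means in 1 fit, adjusted over all genes tested; the fit was tested on simulated data. Overlaps and sequence counts used Python 3.11.15 with pandas 2.3.3. The intervals are exact binomial (Clopper-Pearson) at 95%.

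The peaks, gene lists and tests were chosen with earlier results of these data known. Genes were named by rule: the 12 sites of all 4 lists with the highest lowest fold in genes of at least 1 FPKM and the 5 with the widest range, the 5 peaks of highest fold without counterpart on each day, in sham, and over all 3 days, up to 4 genes per list by fold, and genes that passed in limma, without predicted names. Other pseudocounts, filters, scaling, overlaps and libraries left out were tried. Some genes that met the rule are not reported here.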

Additional observations from a re-analysis of the deposited data

How the results depend on the processing

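Counts of genes with a 5′ UTR peak that passed in limma on days 3, 7 and 14 were 3, 2 and 2. They stayed within 1.5 times that under pseudocounts of 0.1 and 1, no filter, a filter of 5 FPKM and quantile scaling. Leaving out 1 library at a time gave 0 to 12, 1 to 4 and 1 to 6, and leaving out both libraries that stood apart 345, 46 and 244. Counting only genes with a peak in the day's list or in sham gave 1 on day 14. Whether replicate numbers pair the libraries was not settled. Correlations of same-numbered deviations ran from -0.105 to 0.793, and those of differently numbered libraries from -0.692 to 0.619. The value of 0.793 was that of day 7 replicate 3 with sham replicate 3, the libraries that stood apart. With a replicate block 1, 1 and 2 genes passed. S100a11 on day 7 and day 14 passed in 19 of 19 alternatives and on day 3 in 17 of 19 (not without day 3 replicate 2 or 3, adjusted p = 0.0512 and 0.0555). Dbp passed in 14 of 19 on day 3 and 16 of 19 on day 14, C1qa in 15 of 19 on day 7 and Bin2 in 7 of 18 on day 3, with adjusted p up to 0.0976, 0.0921, 0.0702 and 0.232; no direction reversed.

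Peak counts depend on the threshold by construction. All rows annotated 5′ UTR were 7018, 4853 and 6661 on days 3, 7 and 14 and 4988 in sham; a fold of at least 4 with lg.p of at most -10 left 1546, 1492 and 1639, and 1899 in sham, which was then the longest list. The share of sham sites found on days 3, 7 and 14 was 70.5%, 68.4% and 71.8% with 1 base of overlap, 29.2%, 37.3% and 32.2% at 80%, 58.4%, 61.9% and 59.9% when any peak counted, 56.9%, 64.6% and 59.6% for stronger sham peaks, and 50.3%, 56.7% and 54.0% over exonic blocks, which was chosen after seeing the data. With equal numbers of the strongest peaks it was 44.9%, 54.4% and 46.8%. Counting strands together left 709, 283 and 689 peaks of days 3, 7 and 14 without a sham row. DRACH words in place of GGAC occurred in 40.6%, 42.3% and 40.2% of starts on days 3, 7 and 14 and 43.0% in sham, and GGACT in 5.28%, 6.09% and 5.22% and in 5.52% of sham; in starts without a peak the shares were 42.1% and 5.10%. Median RNA changes stayed small: for peaks without a sham partner on day 3 the median was 0.02 with a pseudocount of 0.1, 0.05 with 1 base of overlap and 0 without both libraries, and on day 14 it was 0.05 with 1 base and 0.02 without both; for sham peaks without a partner it was 0 on day 3 and 0.02 on day 14 without both libraries. Leaving out 1 library gave 0 to 0.03, -0.02 to 0.03 and 0.02 to 0.04 for the first set on days 3, 7 and 14, and -0.01 to 0, -0.01 to 0.01 and 0 to 0.02 for the second. The cause of these moves was not tested. Motifs in the central 100 bases of peaks and a recount against reference 5′ UTRs were not run, as both need a genome or transcript annotation not used here. Depth limits which weak peaks could be called, and it is unknown.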
